A study of Mus musculus with 4 samples.

Results

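The fecal bacteria of mice dosed with metronidazole by 3 routes were compared with those of mice that received phosphate-buffered saline (PBS) by the same route. Samples were taken as members where the deposited sample sheets gave day 4 and metronidazole or PBS, which left 18 metronidazole mice (6 each by PO, IP and IV) and 16 PBS mice (5 PO, 5 IP and 6 IV), or 34 of the 198 fecal libraries in the composition table. All animals were wild-type C57BL/6J mice, 8 to 12 weeks old, kept under specific pathogen-free conditions and assigned to groups at random. Each antibiotic mouse received 2.5 mg of drug in 100 µl of PBS, and each control 100 µl of PBS alone, with 2 doses per day on 3 days and a last dose on day 4. PO stands for oral gavage, IP for injection into the peritoneal cavity and IV for injection into a vein, and tissues were taken 4 hours after the last dose. DNA from feces was amplified over the V4 region of the bacterial 16S ribosomal RNA gene and sequenced. The table gives for each library the share of reads of 488 taxa, here printed as a percent of reads. A share does not show how many bacteria there were, so a loss of all bacteria alike would not appear in it. The sources used here do not give sex or cage, and mice of a shared cage cannot be told apart from independent ones, so p-values measure the spread between these mice.

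Metronidazole is a nitroimidazole prodrug. Enzymes of anaerobic cells reduce its nitro group, and the products damage DNA, so the drug acts on strict anaerobes and has little action on bacteria that live in air. Most bacteria of the mouse colon are strict anaerobes. The Bacteroidota, with the families Muribaculaceae and Bacteroidaceae, ferment plant and host glycans there, and the Clostridia, with Lachnospiraceae and Oscillospiraceae, include many producers of butyrate. After an oral dose the drug is taken up well from the upper intestine, and it also reaches the gut from the blood.

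Depth was read from the steps between the values of each library and is a lower limit, because the smallest value equals 2 reads in all 34 libraries. The metronidazole libraries held 1426 to 49966 reads with a median of 19526.5, and the PBS libraries 8556 to 64482 reads with a median of 37115. The metronidazole libraries were shallower by 0.85 on the log2 scale (-0.85, 95% interval -1.59 to -0.13, permutation within routes, p = 0.0214). The difference was -1.28 by PO and -1.55 by IP (exact permutation, adjusted p = 0.0649 each) and 0.17 by IV (adjusted p = 0.742). Their limit of 3 reads, the share that a count of 0 still allows where single reads are kept, was 0.0060% to 0.210%. In PBS libraries it was 0.00465% to 0.0351%. Limits and intervals of this kind cover counting error only, since PCR copies are not independent molecules. Single reads are never listed, so a listed 0 can hide more, and a fold taken against this limit over a group is not a firm bound. The libraries of PBS IV replicates 4 to 6 came from a second sequencing run and all others from the first. No pair of libraries within a group agreed within sampling noise (0 of 80 pairs).

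The diversity of the community was close to that of the controls. The Shannon index, which rises with the number of taxa and the evenness of their shares, lay between 2.71 and 3.33 in metronidazole mice with a median of 2.94, and between 2.58 and 3.46 in PBS mice with a median of 2.93. The range of the metronidazole mice fell wholly inside that of the PBS mice. The mean was 2.94 ± 0.171 under metronidazole and 2.95 ± 0.247 under PBS (SD, n = 18 and 16), a difference of -0.0059 (95% interval -0.150 to 0.139, permutation within routes, p = 0.935). By route the difference was 0.028 by PO (-0.346 to 0.360), 0.015 by IP (-0.284 to 0.286) and -0.056 by IV (-0.264 to 0.159), each with an adjusted p of 0.911 in the exact permutation test. The effects by different routes did not differ beyond the spread between mice (permutation test, adjusted p = 0.949 for each of the 3 pairs of routes).

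The number of taxa did not differ beyond the spread between mice. With each library thinned to 1000 reads, metronidazole mice showed 61.7 ± 10.8 taxa and PBS mice 64.6 ± 12.3 (SD, n = 18 and 16), a difference of -3.08 taxa (-11.3 to 5.18, permutation p = 0.463). At full depth the counts were 98.2 taxa under metronidazole and 117 under PBS, with a difference of -18.6 (-39 to 1.84, permutation p = 0.0723), and here the shallower metronidazole libraries stand beside the lower count.

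The make-up of the communities was compared by the Bray-Curtis distance, which is 0 for identical shares and 1 where no taxon is shared. Metronidazole and PBS mice of the same route were 0.312 ± 0.0857 apart (SD over 96 pairs). Metronidazole mice were 0.272 apart from each other and PBS mice 0.319, so a pair across treatments was no farther apart on average than a pair of controls. The share of the variation in distance that went with treatment within routes (R2, from 0 to 1) was 0.0716, with a permutation p of 0.0465, while the R2 of the route of dosing was 0.144. This call was lost when any of 19 libraries was left out (11 of metronidazole and 8 of PBS, p between 0.0518 and 0.0836, R2 0.0617 to 0.0722): metronidazole PO 1 and 3, IP 1, 2, 5 and 6, IV 1, 3, 4, 5 and 6, and PBS PO 2 and 4, IP 3 and 5, IV 2, 3, 5 and 6. Within a route no comparison passed (exact permutation, R2 0.0961 and p = 0.474 by PO, R2 0.161 and p = 0.117 by IP, R2 0.147 and p = 0.165 by IV). Within the first run alone the pooled R2 was 0.0687 with a permutation p of 0.0711. On the Aitchison distance, which is built from log ratios and gives rare taxa more weight, the pooled R2 was 0.0623 with a permutation p of 0.00114. Rare taxa are also those that depth limits most, and the metronidazole libraries were shallower (-0.85 on the log2 scale). Whether depth bears on this value was not tested.

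The phyla and families that make up most of the community kept their shares within the spread between mice. Bacteroidota held 86.0% ± 8.32 of the reads in metronidazole mice and 87.5% ± 7.49 in PBS mice (SD, n = 18 and 16), a difference of -1.37 percentage points (95% interval -6.79 to 4.02). Firmicutes_A, the phylum label of the Clostridia in the table, held 12.6% ± 7.84 under metronidazole and 10.98% ± 7.35 under PBS, a difference of 1.38 points (-3.78 to 6.55). Both phyla had an adjusted permutation p of 0.606.

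Within the Bacteroidota, Muribaculaceae averaged 58.9% ± 12.6 of reads under metronidazole and 66.3% ± 14.2 under PBS. The difference of -7.03 percentage points had an interval of -16.3 to 2.19 and an adjusted permutation p of 0.401. Bacteroidaceae averaged 24.5% ± 7.53 under metronidazole and 19.0% ± 13.3 under PBS, a difference of 5.39 points (-2.34 to 13.0, adjusted permutation p = 0.401). Among the Clostridia, Lachnospiraceae averaged 8.52% ± 6.34 under metronidazole and 6.75% ± 5.43 under PBS (1.56 points, -2.36 to 5.49). Oscillospiraceae_88309 averaged 2.32% ± 1.84 under metronidazole and 2.59% ± 1.90 under PBS (-0.310 points, -1.61 to 0.984). Rikenellaceae, the family of the bile-tolerant genus Alistipes, averaged 1.52% ± 0.859 under metronidazole and 1.51% ± 1.15 under PBS. The adjusted permutation p of these 3 families was 0.705 or higher.

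**Figure D1:**
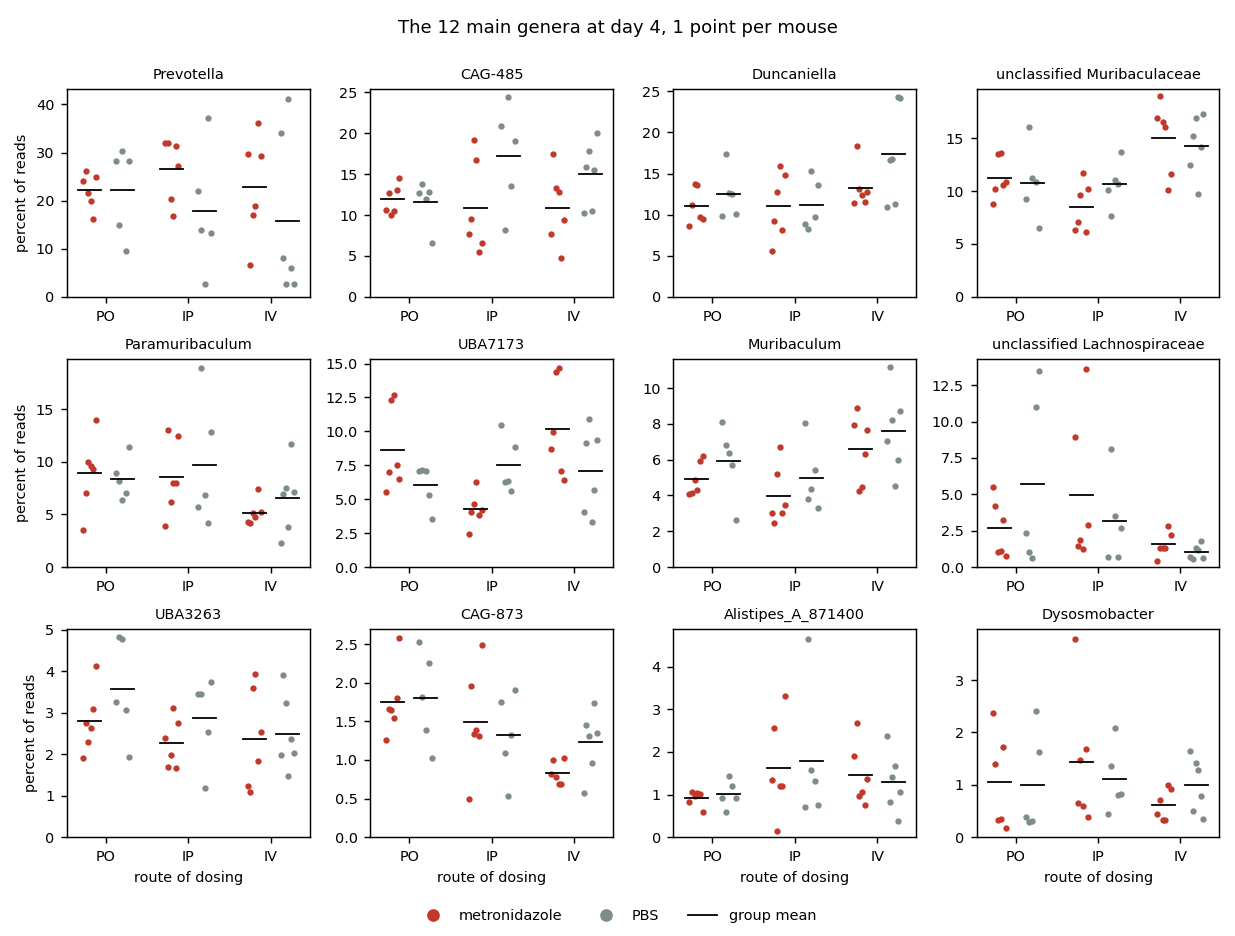
The vertical axes give the percent of reads of the 12 genera that averaged at least 1% over the 34 mice at day 4, and the horizontal axes the route of dosing, with metronidazole left of PBS, 1 point per mouse and a black line for the group mean. The points of both treatments overlap in each panel, and Prevotella spans 2.63% to 41.2% in PBS mice.

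Prevotella, a carbohydrate-fermenting genus of the Bacteroidaceae in this table, was the most abundant genus. It held 6.68% to 36.1% of reads in metronidazole mice (median 24.5%) and 2.63% to 41.2% in PBS mice (median 14.5%). The metronidazole range lay inside the PBS range. The means were 23.9% ± 7.40 under metronidazole and 18.4% ± 13.2 under PBS (SD, n = 18 and 16), and the difference of 5.33 points (-2.29 to 12.9) had a permutation p of 0.159, adjusted 0.382 over the 12 main genera. On the log2 scale it was 0.76 (95% interval 0.15 to 1.38), with an adjusted p of 0.188 over the 109 genera tested with limma. By IV the 6 metronidazole mice held 29.6%, 6.68%, 16.9%, 19.0%, 36.1% and 29.2%, and the 6 PBS mice 34.01%, 8.08%, 2.69%, 41.2%, 5.92% and 2.73%. The PBS IV mice alone covered nearly the whole range.

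CAG-485, a Muribaculaceae genus known mainly from its genomes, had the lowest unadjusted permutation p of the main genera on percent of reads. It held 4.72% to 19.1% of reads in metronidazole mice (median 10.6%) and 6.55% to 24.4% in PBS mice (median 13.7%), and the ranges overlapped over most of their length. The means were 11.2% ± 4.09 under metronidazole and 14.6% ± 4.85 under PBS, a difference of -3.40 points (-6.59 to -0.209, permutation p = 0.0380, adjusted 0.382 over the 12 main genera). With limma the log2 difference was -0.40 (-0.77 to -0.03) and the adjusted p over 109 genera 0.269, higher than that of Prevotella. By route the difference was 0.353 points by PO, -6.34 by IP and -4.13 by IV, and no route passed the exact permutation test (adjusted p of 0.384 or higher).

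The other Muribaculaceae genera did not pass the test either. Duncaniella, a cultured mouse genus, averaged 11.8% ± 3.05 under metronidazole and 13.9% ± 4.95 under PBS (-1.94 points, -4.55 to 0.683). Reads of the family that had no genus name averaged 11.6% ± 3.70 under metronidazole and 12.0% ± 3.22 under PBS (-0.289 points, -2.21 to 1.64). Paramuribaculum averaged 7.57% ± 3.27 under metronidazole and 8.13% ± 4.06 under PBS (-0.684 points, -3.10 to 1.72). UBA7173 was the Muribaculaceae genus with a positive pooled difference, at 7.69% ± 3.71 under metronidazole and 6.88% ± 2.35 under PBS (0.893 points, -1.198 to 2.99). Muribaculum, the type genus of the family, averaged 5.16% ± 1.83 under metronidazole and 6.27% ± 2.27 under PBS (-1.02 points, -2.27 to 0.227). UBA3263 averaged 2.48% ± 0.867 under metronidazole and 2.95% ± 1.09 under PBS (-0.491 points, -1.16 to 0.177). CAG-873 averaged 1.36% ± 0.599 under metronidazole and 1.44% ± 0.550 under PBS (-0.100 points, -0.447 to 0.2504). The adjusted permutation p of these 7 genera was 0.382 or higher.

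Outside Prevotella and the Muribaculaceae, unclassified Lachnospiraceae held 3.06% ± 3.35 of reads under metronidazole and 3.15% ± 4.04 under PBS (-0.203 points, -2.67 to 2.27). Alistipes_A_871400 held 1.33% ± 0.796 under metronidazole and 1.36% ± 1.004 under PBS (-0.0290 points, -0.643 to 0.567). Dysosmobacter, a butyrate-producing Oscillospiraceae genus, held 1.03% ± 0.923 under metronidazole and 1.03% ± 0.676 under PBS (-0.0133 points, -0.579 to 0.560). Each of these had an adjusted permutation p of 0.963.

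At the level of named species and unnamed taxa, none of the 18 that averaged at least 1% passed after adjustment. The lowest permutation p was that of Muribaculum gordoncarteri, which averaged 1.94% ± 0.706 under metronidazole and 2.58% ± 1.15 under PBS, a difference of -0.580 points (-1.02 to -0.136, p = 0.0125, adjusted 0.225). In CAG-485 the lower share lay with CAG-485 sp002493045 (8.31% ± 4.67 under metronidazole and 11.7% ± 4.99 under PBS, -3.40 points, adjusted permutation p = 0.259), while CAG-485 sp002362485 differed by 0.0185 points. Prevotella consisted almost wholly of Prevotella sp902776665, at 23.9% ± 7.40 under metronidazole and 18.4% ± 13.2 under PBS. Duncaniella held species on either side of 0, with -1.55 points for Duncaniella dubosii (-3.26 to 0.130) and 0.732 points for Duncaniella muris (-0.0412 to 1.51).

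The size of change that the mice can exclude was read from the 95% intervals of limma, which shares the spread between genera. Pooled over routes, the intervals of all 12 main genera excluded a fall of more than 2-fold. The intervals of 10 of the 12 excluded a rise of more than 2-fold, the exceptions being Prevotella, whose interval reached 2.599-fold higher, and unclassified Lachnospiraceae, whose interval reached 2.04-fold higher. All 12 excluded a change of more than 4-fold in either direction. The median width of an interval, from its centre to either end, was 1.35-fold.

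For single genera the largest fall left inside the interval was 1.87-fold for Dysosmobacter, 1.71-fold for CAG-485, 1.60-fold for UBA3263 and 1.58-fold for Alistipes_A_871400. It was 1.53-fold for Muribaculum, 1.43-fold for Paramuribaculum, 1.41-fold for Duncaniella and 1.27-fold for unclassified Muribaculaceae. In Prevotella the interval lay above 1, from 1.11-fold to 2.599-fold higher, although its adjusted p missed the threshold.

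**Figure D2:**
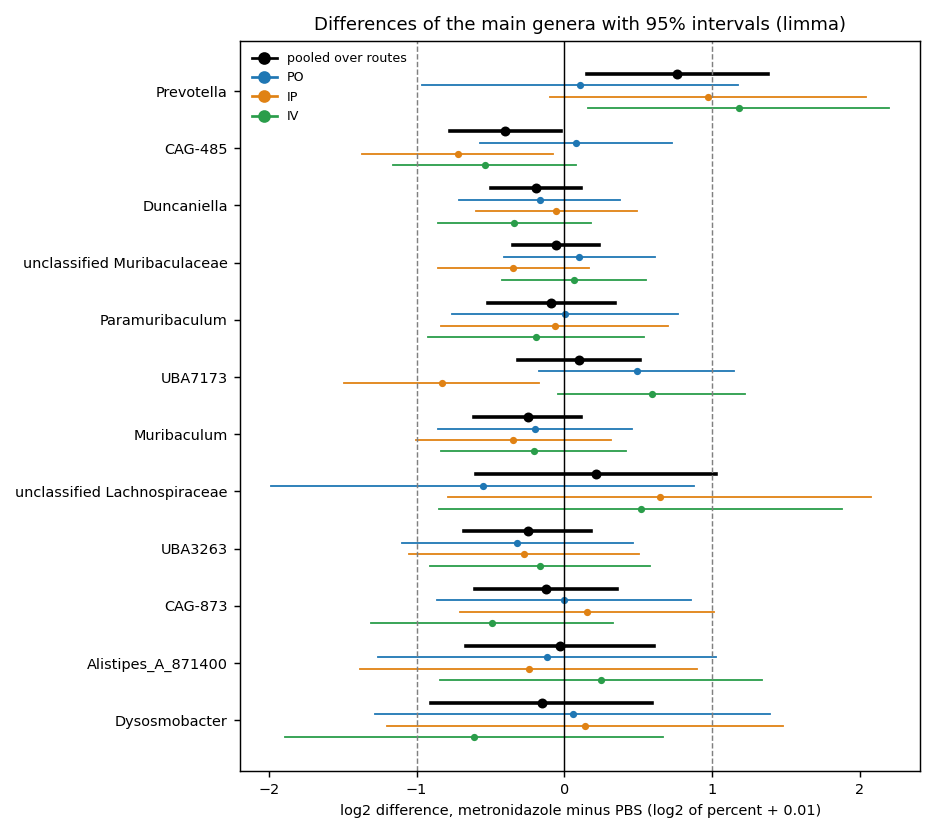
The horizontal axis gives the log2 difference of metronidazole minus PBS on the log2(percent of reads + 0.01) scale with its 95% limma interval, for the 12 main genera on the vertical axis, pooled (black) and by PO, IP and IV (colours). The dashed lines mark a change of 2-fold; pooled intervals cross the lower line for 0 genera and the upper line for 2, and intervals of single routes are wider.

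With the 6 metronidazole mice of a single route the limits were wider. By PO the intervals excluded a fall of more than 2-fold for 8 of the 12 main genera, a rise of that size for 8 and both for 6. By IP these counts were 6, 8 and 3, and by IV 9, 8 and 5. A change of more than 4-fold in either direction was excluded for 12 genera by PO, 10 by IP and 11 by IV, and a change of more than 8-fold for all 12 by every route. The median width was 1.71-fold by PO and by IP and 1.67-fold by IV.

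Genera between 0.01% and 1% of reads gave wider limits than the main genera. Among the 32 genera that averaged 0.1% to 1% of reads the median pooled width was 2.19-fold, and 24 of the 32 excluded a change of more than 4-fold in either direction. Among the 47 genera at 0.01% to 0.1% it was 1.91-fold. Among the 18 genera under 0.01% it was 1.43-fold, and 16 of the 18 excluded a change of more than 2-fold in either direction. All 18 excluded a change of more than 4-fold. There the 0.01 added before the log holds folds small, so these exclusions do not rest on the mice alone. Over all 109 genera tested, these 18 included, 40 excluded a change of more than 2-fold in either direction. A change of more than 4-fold was excluded for 95 and of more than 8-fold for 106. The median log2 difference over the 109 was -0.06. Folds of rare genera are on the log2(percent + 0.01) scale and understate the change of genera near 0.

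By route, UBA7173 was the main genus with the lowest exact p. In the IP mice it held 2.45%, 4.09%, 4.65%, 6.25%, 3.83% and 4.203% of reads under metronidazole, against 10.5%, 6.24%, 6.31%, 5.61% and 8.84% under PBS. The groups overlapped in 1 metronidazole mouse, whose 6.25% lay above the 2 lowest PBS values. The means were 4.24% ± 1.23 under metronidazole and 7.50% ± 2.08 under PBS (SD, n = 6 and 5), a difference of -3.25 points (-5.65 to -1.04, exact permutation p = 0.00866, adjusted 0.104 over the 12 main genera).

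The UBA7173 difference had the opposite sign by the other routes. It was 2.58 points by PO (8.61% ± 3.10 under metronidazole and 6.02% ± 1.58 under PBS) and 3.13 points by IV (10.2% ± 3.58 under metronidazole and 7.08% ± 3.15 under PBS). The differences between routes did not pass limma over all genera (log2 1.32 for PO minus IP, adjusted p = 0.644, and -1.42 for IP minus IV, adjusted p = 0.158).

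For Prevotella the difference was -0.153 points by PO (-8.72 to 9.93), 8.83 by IP (-5.15 to 21.3) and 7.14 by IV (-11.8 to 26.1). CAG-873 by IV averaged 0.833% ± 0.150 under metronidazole and 1.23% ± 0.409 under PBS, a difference of -0.395 points (exact permutation p = 0.0476, adjusted 0.384). No main genus passed by any route after adjustment over the 12, where the smallest exact p that 5 or 6 controls allow is 0.00216.

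Across all genera, 4 of the 109 tested passed an adjusted p of 0.05 with limma in the pooled comparison (3.67%), 3 lower (2.75%) and 1 higher (0.917%) under metronidazole. Another 12 had an unadjusted p under 0.05, 16 in all. By PO 3 of 109 passed (2.75%). By IP and by IV no genus passed with limma (0%), with 12 and 8 genera at an unadjusted p under 0.05. The 5 genera named by these calls each averaged under 0.5% of reads in both treatments.

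**Figure D3:**
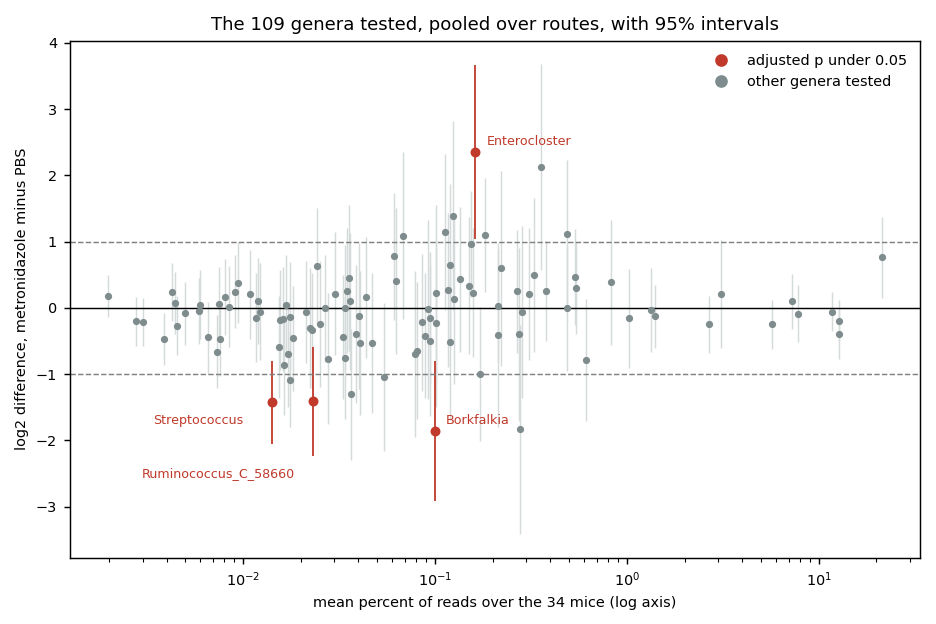
Each point is 1 of the 109 genera tested, at its mean percent of reads over the 34 mice (horizontal log axis) and its pooled log2 difference of metronidazole minus PBS with its 95% limma interval (vertical axis). The 4 genera past the threshold, in red, all lie between 0.01% and 1% of reads, and the 12 genera above 1% lie between -0.40 and 0.76.

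Streptococcus, an aerotolerant lactic acid bacterium of the mouth and gut, was lower under metronidazole. It was listed at 0 in all 18 metronidazole mice, or 0 of 378189 recovered reads in all. Among the 16 PBS mice it was listed in 10, at 0% to 0.143% with a median of 0.0205% and 150 of 529957 reads. Against the limit of 3 reads taken over the group, the summed share was 35.7-fold lower under metronidazole. Single reads are not listed, so this is not a firm bound.

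The limma log2 difference of Streptococcus was -1.43 (SE 0.313, adjusted p = 0.00428). It was listed in 4 of 5 PBS PO, 4 of 5 PBS IP and 2 of 6 PBS IV mice. The limit of 3 reads lay under the PBS mean of 0.0300% in 14 of the 18 metronidazole libraries. Thinned to 1000 reads, 0 of 18 metronidazole and 3 of 16 PBS libraries held the genus, too few for a test at that depth. It was listed in none of the 107 day 0 libraries of the series, but these were shallower, with a median of 6769.5 reads in mice later given metronidazole and 11873.5 in those given PBS. The limit of 3 reads lay under 0.0300% in 45 of the 107. Among these were 5 of the 18 libraries of mice later given metronidazole and 11 of the 18 of PBS mice.

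By PO, where no metronidazole mouse and 4 of 5 PBS mice held Streptococcus, the log2 difference was -2.04 (limma adjusted p = 0.0215). This call rested on PBS PO replicate 2, with 0.143%, since without it the value was -1.57 and the limma adjusted p 0.0826. The pooled call held without any 1 of the 34 libraries. In a limma fit of all day 4 groups, whose spread includes mice with up to 44.6% Streptococcus, the pooled value was -1.44 with an adjusted p of 0.182.

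Ruminococcus_C_58660, a genus of the fiber-degrading Ruminococcaceae, was also lower. It was listed in 5 of 18 metronidazole mice, at 0% to 0.0283%, and in 11 of 16 PBS mice, at 0% to 0.121%. By PO the groups did not overlap: the 6 metronidazole mice were all at 0, while the 5 PBS mice held 0.0930%, 0.0165%, 0.0559%, 0.0806% and 0.0572%. Against the limit of 3 reads taken over the group, the summed PO share was 26.5-fold lower (0 of 116670 reads against 144 of 210932). Without metronidazole PO replicate 1, the deepest of these 6 libraries, it was 17.2-fold lower. Single reads are not listed, so neither value is a firm bound.

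The log2 difference of Ruminococcus_C_58660 was -1.41 pooled (SE 0.409, limma adjusted p = 0.0336) and -2.68 by PO (limma adjusted p = 0.0202). The pooled call was lost without any 1 of 20 of the 34 libraries (limma adjusted p of up to 0.0707), among them the 4 PBS PO libraries 1, 3, 4 and 5. Thinned to 1000 reads, 0 of 18 metronidazole and 7 of 16 PBS libraries held it. At day 0 it was listed in 2 of 18 metronidazole and 4 of 18 PBS mice, at means of 0.0041% and 0.0170%. At day 4 the means were 0.0055% under metronidazole and 0.0431% under PBS. In the day 0 libraries the limit of 3 reads lay under that PBS mean in 9 of 18 metronidazole and 12 of 18 PBS mice. As the change of each mouse from day 0, the log2 difference was -1.33 with a limma adjusted p of 0.157.

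Borkfalkia, a genus known from a human gut after ceftriaxone, was lower as well. It was listed in 11 of 18 metronidazole mice, at 0% to 0.156% with a median of 0.0436%, and in 15 of 16 PBS mice, at 0% to 0.326% with a median of 0.138%. The ranges overlapped. The means were 0.0486% ± 0.0506 under metronidazole and 0.157% ± 0.0940 under PBS (SD, n = 18 and 16), and the log2 difference was -1.86 (SE 0.527, limma adjusted p = 0.0336).

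The Borkfalkia call was lost without any 1 of 17 libraries, 9 of metronidazole and 8 of PBS (limma adjusted p of up to 0.0663). At day 0 the genus was listed in 12 of 18 mice of each treatment, at means of 0.129% in those later given metronidazole and 0.153% in those given PBS. Within the first run the log2 difference was -1.61 with a limma adjusted p of 0.102, and as the change of each mouse from day 0 it was -2.12 with a limma adjusted p of 0.345. The call was lost in 10 of the 12 processing alternatives, with log2 differences between -2.96 and -0.76.

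Enterocloster, a Lachnospiraceae genus of former Clostridium species, was the genus that was higher. All its reads were assigned to Enterocloster sp000431375. It was listed in 12 of 18 metronidazole mice, at 0% to 1.68% with a median of 0.0974%, and in 4 of 16 PBS mice, at 0% to 0.110% with a median of 0%. The means were 0.292% ± 0.445 under metronidazole and 0.0170% ± 0.0333 under PBS, and the log2 difference was 2.35 (SE 0.653, limma adjusted p = 0.0336).

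By route Enterocloster was listed in 5 of 6 metronidazole against 2 of 5 PBS mice by PO, 5 of 6 against 1 of 5 by IP, and 2 of 6 against 1 of 6 by IV. The pooled call was lost without any 1 of 9 libraries (limma adjusted p of up to 0.0663): metronidazole PO 2 and 5, metronidazole IP 1 and 4, PBS PO 1, 3 and 5, and PBS IP 2 and 4. Before dosing it was already listed in 6 of 18 mice later given metronidazole and in 0 of 18 given PBS, and 5 of the 12 metronidazole mice that held it at day 4 held it at day 0. Taken as the change of each mouse from day 0 to day 4, the log2 difference was 0.73 with a limma adjusted p of 0.832.

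Velocimicrobium, a Lachnospiraceae genus represented here by Velocimicrobium porci, passed by PO alone. The 6 metronidazole PO mice held 0.713%, 0.0555%, 0.0831%, 0.0667%, 0.510% and 0.189%, against 0 in all 5 PBS PO mice, so the groups did not overlap. Against the limit of 3 reads taken over the group, the summed share was 283-fold higher. Metronidazole PO replicate 1 gave 294 of the 469 reads, and without it the summed share was 163-fold higher. Single reads are not listed, so neither value is a firm bound. The log2 difference was 4.18 (SE 1.02, limma adjusted p = 0.0202). By IV the order was reversed, with 1 of 6 metronidazole and 4 of 6 PBS mice listing it. The day 4 difference by PO minus that by IV was 6.55 on the log2 scale (limma adjusted p = 0.00355). That was the 1 genus of 109 past the threshold for PO minus IV (0.917%), while PO minus IP and IP minus IV had 0 (0%).

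The same split of Velocimicrobium was there before dosing. At day 0 all 6 mice later given metronidazole by PO held it, at a mean of 0.606% ± 0.420, and 0 of 6 mice given PBS by PO did. Measured as the change of each mouse from day 0 to day 4, the PO difference was -1.33 on the log2 scale with a limma adjusted p of 0.697.

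**Figure D4:**
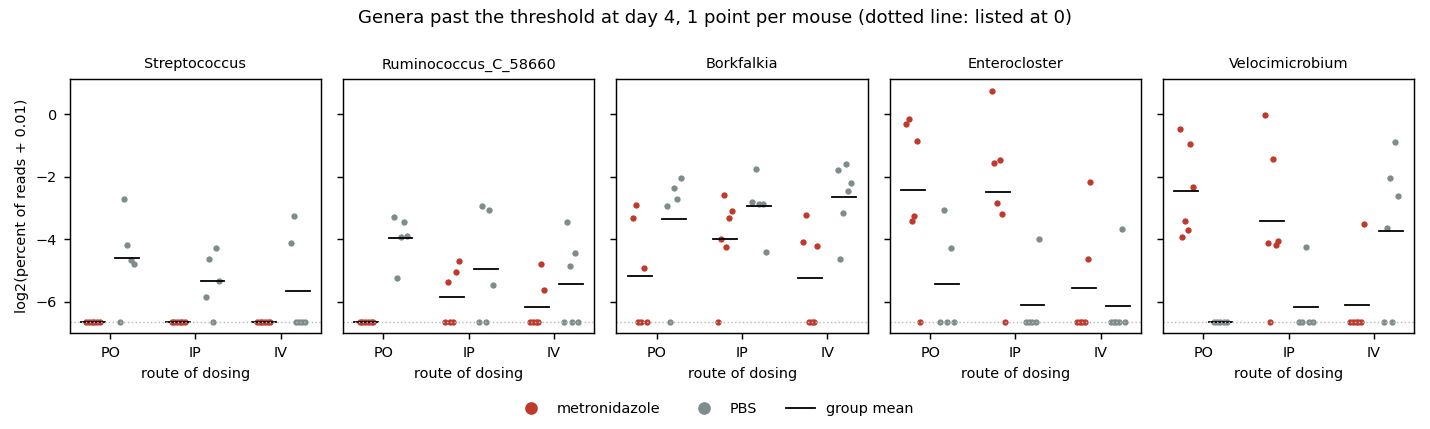
The vertical axis gives log2(percent of reads + 0.01) of the 5 genera past the threshold at day 4, and the horizontal axes the route, with metronidazole left of PBS, 1 point per mouse, black lines for group means and a dotted line for a genus listed at 0. All 18 metronidazole mice sit on the dotted line for Streptococcus, and so do the 5 PBS PO mice for Velocimicrobium.

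Among genera that missed the threshold, unclassified CAG-552, a Clostridia family known mainly from genomes, had the fifth lowest p. It was listed in 6 of 18 metronidazole mice and 12 of 16 PBS mice, with a log2 difference of -1.08 (limma adjusted p = 0.0819). In the limma fit of all day 4 groups 5 of 95 genera passed for metronidazole (5.26%), of which Enterocloster and Ruminococcus_C_58660 also passed in the fit of metronidazole and PBS alone. The other 3 were Velocimicrobium (1.52), CAG-273 (-1.34) and Adlercreutzia_404257 (-0.67 on the log2 scale).

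The genera were then grouped by family and role, and each group was read against the median log2 difference of -0.06 and the 3.67% called over all genera. Of the 8 Muribaculaceae genera 0 passed, with a median log2 difference of -0.16. Of 3 Bacteroidaceae genera tested, from 4 in all, 0 passed (median 0.30). Beside Prevotella these include Bacteroides_H, which averaged 0.576% under metronidazole and 0.512% under PBS. Of 4 Rikenellaceae and Marinifilaceae genera tested of 5, 0 passed (median 0.10), and Odoribacter_865974, a producer of short-chain fatty acids, averaged 0.651% under metronidazole and 0.404% under PBS. The Tannerellaceae were tested through Parabacteroides_B_862066 alone, which did not pass (-0.44).

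Among the Clostridia, 67 of 160 genera could be tested, and 1 was higher and 2 were lower (median -0.06). The Lachnospiraceae counted 32 tested of 64, with 1 higher (Enterocloster) and 0 lower (median 0.03). Their most abundant named genus, COE1, averaged 0.986% ± 0.661 under metronidazole and 0.646% ± 0.494 under PBS (log2 0.39, limma adjusted p = 0.809). The Oscillospiraceae and relatives counted 18 tested of 39, with 0 higher and 1 lower, Ruminococcus_C_58660 (median -0.19), and Lawsonibacter among them averaged 0.532% under metronidazole and 0.442% under PBS. The Borkfalkiaceae and CAG-552 counted 2 tested of 4, with Borkfalkia lower (median -1.47).

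Of the lactic acid bacteria 4 of 7 genera were tested, 0 were higher and 1 was lower, and the median was 0.51. Streptococcus was the lower one, while Ligilactobacillus averaged 0.0893% ± 0.159 under metronidazole and 0.0297% ± 0.0572 under PBS (log2 0.78, limma adjusted p = 0.436) and Lactobacillus 0.0342% under metronidazole and 0.0131% under PBS (log2 0.63, limma adjusted p = 0.544). The Enterobacteriaceae, facultative anaerobes that can grow after antibiotics, were too rare to test (0 of 3 genera). Their summed share was 0% to 0.434% in metronidazole mice and 0% to 0.345% in PBS mice, with a median of 0% in both. The Erysipelotrichaceae were also too rare (0 of 7 tested), with a summed share of at most 0.0121% under metronidazole and 0.0302% under PBS.

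The 3 Desulfovibrionaceae genera, which reduce sulfur compounds, were tested and 0 passed (median 0.25). Desulfovibrio_R_446353 averaged 0.231% ± 0.181 under metronidazole and 0.130% ± 0.163 under PBS (log2 1.10, limma adjusted p = 0.174), and Bilophila averaged 0.0310% under metronidazole and 0.0293% under PBS. Akkermansia, a mucin-degrading genus, averaged 0.0986% ± 0.263 under metronidazole and 0.342% ± 1.02 under PBS (log2 -0.41, limma adjusted p = 0.894). Of the Bifidobacteriaceae and Eggerthellaceae 4 of 10 genera were tested and 0 passed (median -0.46). Their summed share was 0.0125% ± 0.0161 under metronidazole and 0.0428% ± 0.0304 under PBS (-0.0302 points, 95% interval -0.0473 to -0.0129, not adjusted over the lists). The metronidazole share lay under the mean limit of 3 reads of those libraries, 0.0296% against 0.0117% in PBS libraries. Whether depth bears on this difference was not tested. Adlercreutzia_404257 was listed in 3 of 18 metronidazole and 7 of 16 PBS mice. Of 7 genera known from reagents, skin and food 1 could be tested, Burkholderia, which did not pass (log2 0.24), and their summed share was at most 0.0212% under metronidazole and 0.0304% under PBS.

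The same mice had been sampled on day 0, before dosing. The distance between the day 0 and the day 4 community of a mouse was 0.271 ± 0.0865 in metronidazole mice and 0.296 ± 0.0952 in PBS mice (SD, n = 18 and 16), a difference of -0.0217 (-0.0776 to 0.0342, permutation within routes, p = 0.432). The largest extra movement of metronidazole mice that the interval holds is 0.0342. With only mice whose libraries both held at least 1000 reads (16 metronidazole and 13 PBS mice) the difference was -0.0244 (permutation p = 0.401).

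Before dosing, 0 of 109 genera passed between the treatments with limma pooled over routes (0%), and the R2 of treatment was 0.0353 (permutation p = 0.292). This does not show that the groups were alike. These day 0 comparisons used 18 mice of each treatment, and some of the PBS mice had no day 4 library, where 16 remained. The day 0 libraries had medians of 6769.5 reads in metronidazole and 11873.5 in PBS mice. Velocimicrobium by PO and Enterocloster were already listed unevenly, as given above. Paramuribaculum was lower at day 0 in the mice later given metronidazole, at 5.47% ± 2.40 against 8.14% ± 2.79 in PBS mice (-2.67 points, -4.45 to -0.892, permutation p = 0.00398, not adjusted over the 12 genera). Prevotella averaged 29.5% ± 6.16 at day 0 in mice later given metronidazole and 28.5% ± 7.79 in those given PBS. These means were not level by route. With metronidazole first, they were 27.8% and 34.9% by PO and 26.8% and 27.9% by IP. By IV they were 33.8% ± 4.54 and 22.9% ± 8.40 (SD, n = 6 each), so the IV mean was already higher before dosing.

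Ampicillin, vancomycin and the mix, given at the same dose and by the same routes, stood farther from PBS than metronidazole did. The mean distance of a mouse to the PBS mice of its route was 0.311 ± 0.0575 under metronidazole (0.216 to 0.444), against 0.883 ± 0.125 under ampicillin (0.623 to 0.992), 0.844 ± 0.198 under vancomycin and 0.823 ± 0.185 under the mix of all 4 drugs (SD, n = 18, 11, 17 and 13). PBS mice were 0.318 ± 0.0472 from each other by the same measure. The lowest ampicillin mouse (0.623) and the lowest vancomycin mouse (0.483) lay above the highest metronidazole mouse (0.444), whereas the mix reached down to 0.394. Each of these 3 differences had a permutation p of 1e-05, the smallest that 100000 resamples can give. Neomycin mice averaged 0.434 ± 0.207 (n = 14), and metronidazole mice were closer to PBS by -0.123 (-0.228 to -0.0212, permutation p = 0.0128). By route the metronidazole and neomycin means were 0.261 and 0.611 by PO, 0.343 and 0.403 by IP, and 0.329 and 0.305 by IV. The neomycin mean by IP held 1 mouse at 0.807, and its median was 0.320, against 0.338 under metronidazole.

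**Figure D5:**
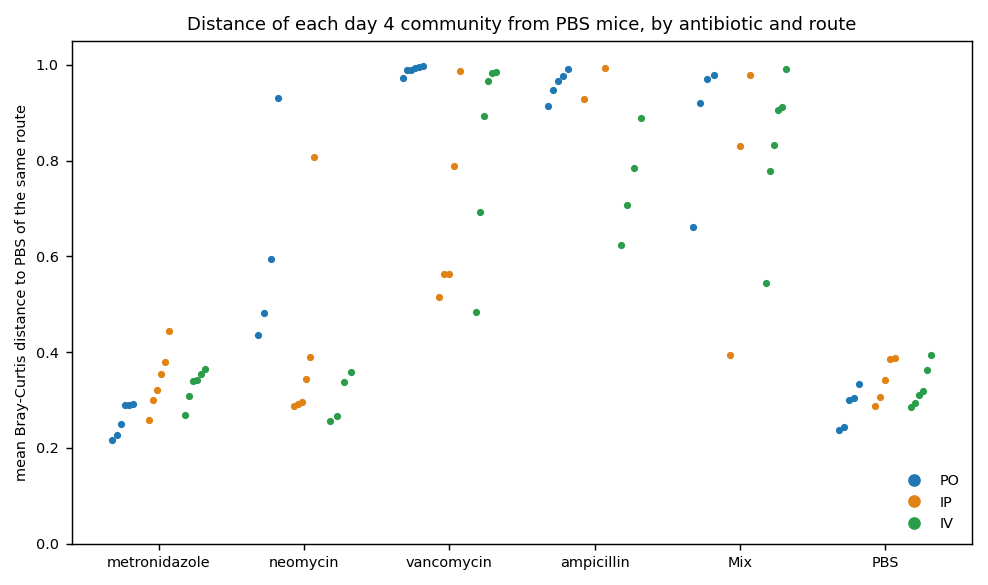
The vertical axis gives the mean Bray-Curtis distance of each day 4 mouse to the PBS mice of its own route, by antibiotic on the horizontal axis and by route in colour, 1 point per mouse. Metronidazole mice lie between 0.216 and 0.444, as PBS mice do between 0.237 and 0.394, while ampicillin mice lie at 0.623 and above.

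The Shannon index of metronidazole mice exceeded that of ampicillin mice by 1.55 (1.16 to 1.93), of vancomycin mice by 1.20 (0.864 to 1.54) and of mix mice by 1.26 (0.815 to 1.71), each with a permutation p of 1e-05. Against neomycin the difference was 0.154 (-0.146 to 0.461, permutation p = 0.332). With limma 71 of 95 genera differed between metronidazole and ampicillin (74.7%), 66 between metronidazole and vancomycin (69.5%), 67 between metronidazole and the mix (70.5%) and 17 between metronidazole and neomycin (17.9%). Prevotella averaged 23.9% of reads under metronidazole, against 1.17% under ampicillin, 2.04% under vancomycin, 10.2% under the mix and 17.1% under neomycin. UBA7173 averaged 7.69% ± 3.71 under metronidazole, against 9.29% ± 17.4 under ampicillin and 7.78% ± 9.91 under vancomycin, with a log2 difference of the opposite sign (2.73 and 3.16, metronidazole minus the other drug). The main genera were chosen for their shares in metronidazole and PBS mice, so their direction against the other drugs was not read as a result.

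Levels of Streptococcus and Borkfalkia spread widely over the drugs. At day 4 Streptococcus was listed in 0 of 18 metronidazole mice, 11 of 14 neomycin mice, 7 of 13 mix mice, 1 of 11 ampicillin mice and 0 of 17 vancomycin mice. Borkfalkia averaged 0.0486% of reads under metronidazole, against 28.5% under ampicillin, 12.6% under the mix, 10.5% under vancomycin, 0.168% under neomycin and 0.157% under PBS. These levels were not compared by a test of their own.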

How the data were processed

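Fecal DNA of mice was amplified over the V4 region of the bacterial 16S gene with 30 to 35 PCR cycles, using 2 DNA extraction kits, and sequenced on an Illumina MiSeq in 2 runs, per the labels' protocols. The deposited composition table holds signal values that the authors scaled to 100000 per library (tested on the file, within 0.13), over 488 taxa in 7 ranks, and the deposited sample sheets name antibiotic, day, route and replicate of each column. The sources used here do not give the read filter or the taxonomy database. Empty cells (11.6% of all) were read as 0. In all 34 libraries 100% of the values above 0 were whole multiples of a step (within 0.02 reads and 1e-05), the step being taken as 1 read. Because the smallest value was always 2 reads, these are not raw counts, and depths are lower limits.

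Values were divided to percent of reads and summed to 316 genera, of which 201 occurred in the 34 libraries and 109 in at least 20% of them. These were fitted with limma 3.58.1 (R 4.3.3) on log2(percent + 0.01), with route as a block for the pooled comparison and route by treatment means otherwise. P-values were adjusted by Benjamini-Hochberg over all 109 genera, with a threshold of 0.05. Single values, among them the shares of the main taxa (at least 1% of reads), were compared by permuting treatment within routes (100000 resamples) or exactly within a route, two-sided, with 95% intervals by inverting the test. Adjusted p of main taxa are over the taxa of 1 rank. Bray-Curtis distances were tested the same way. Thinning was to 1000 reads. Other antibiotics were set against metronidazole in a limma fit of all day 4 groups (95 genera), near-identical libraries being counted once. Scripts ran in Python 3.11.15 with numpy 2.4.6, scipy 1.17.1, pandas 2.3.3 and matplotlib 3.10.9, and the fit was tested on simulated data.

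Taxa were named if they were among the 10 most abundant genera at day 0, averaged at least 1%, passed the threshold, were among the 5 lowest pooled p, or were the 2 most abundant members of a list. The members and the lists of families and roles were chosen with earlier results of these data known. Sequences of the taxa are not reported here.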

Additional observations from a re-analysis of the deposited data

Results flagged for a closer look

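In each group the highest and the lowest mouse were compared with the others for the Shannon index and the 12 main genera (78 tests), and a mouse was singled out when its gap to the nearest one was a large part of the range of the group. Such a rule singles out mice by chance too, at a rate of about 5% of the groups, and 4 of the 78 were singled out here. Duncaniella held 18.4% of reads in metronidazole IV replicate 2, against 11.5% to 13.1% in the other metronidazole IV mice. Paramuribaculum held 7.43% in metronidazole IV replicate 5, against 4.197% to 5.27% in the others. CAG-485 held 6.55% in PBS PO replicate 5, against 12.0% to 13.8% in the other PBS PO mice. Alistipes_A_871400 held 4.65% in PBS IP replicate 2, against 0.696% to 1.56% in the others. These 4 libraries held 49966, 42515, 38465 and 46424 reads.

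The day 4 difference in Velocimicrobium between metronidazole and PBS mice was not the same by each route. The PO difference minus the IV difference was 6.55 on the log2 scale (limma adjusted p = 0.00355). All 6 metronidazole PO mice and 0 of 6 PBS PO mice already held the genus at day 0, and the difference between routes no longer passed when each mouse was measured from its own day 0 value.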

How the results depend on the processing

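The pooled comparison called 4 genera. It called 1 with a pseudocount of 0.001, 0 with presence in 50% of samples required, 1 with no filter on rare genera, 0 after thinning, 1 with each mouse as its own baseline (1 also with day 0 libraries of at least 1000 reads) and 1 with libraries of at least 5000 reads. Presence in 50% of samples leaves out Streptococcus, Enterocloster and Ruminococcus_C_58660 by construction. By PO 3 genera were called, 0 with a pseudocount of 0.1 and 1 each with presence in 50% of samples, no filter, thinning and both own-baseline settings. By IP 0 were called, and 2 in the fit of all day 4 groups. By IV 0 were called, 2 in the fit of all day 4 groups, and 1 each after thinning and within the first run. Between routes 1 was called, 0 with a pseudocount of 0.1 and with both own-baseline settings, and 2 with presence in 50% of samples and after thinning. Velocimicrobium by PO reversed to -1.33 and -1.40 on the log2 scale with own baselines. Of the processing alternatives in which it was tested, the pooled call was lost in 1 of 10 for Streptococcus, 6 of 11 for Enterocloster, 7 of 11 for Ruminococcus_C_58660 and 10 of 12 for Borkfalkia. These counts are not alike. Streptococcus was listed in no day 0 library, so the own-baseline settings took the same value off every mouse. They did not test its call against day 0. The centred log ratio and a pseudocount of 0.1 each called 4 genera pooled, the same 4. A count test with edgeR on recovered reads was not run, since the values are not raw counts.

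The replicate numbers of the sample sheets do not pair treatments: over 16 same-numbered pairs the correlation of deviations was over 0.1 in 3 (-0.311 to 0.456, median 0.0195). With a replicate block the pooled comparison called 2 genera, IP 1 and IV 1.

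The Shannon difference stayed without a call in every setting, but its sign did not hold: it was 0.0476 pooled and 0.0258 by IV at genus level, 0.126 pooled, -0.00372 by PO and 0.172 by IV at family level, and -0.265 by PO, -0.154 by IP and 0.222 by IV with own baselines. The pooled composition call was lost at genus level (R2 0.0679, permutation p = 0.0756), family level (0.0676, p = 0.121), within the first run (0.0687, p = 0.0711) and with libraries of at least 5000 reads (0.0653, p = 0.0688). Uncalled differences of main genera changed sign for unclassified Muribaculaceae (1.37 points), Paramuribaculum (1.92) and Alistipes_A_871400 (0.203) with own baselines, and for Alistipes_A_871400 after thinning (0.0602). The cause of these changes was not tested.

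Leaving out 1 library at a time gave 1 to 5 calls pooled, 3 to 4 by PO, 0 to 1 by IP, 0 to 1 by IV and 1 to 2 between routes. The Shannon difference ranged from -0.0339 to 0.0269 pooled, from -0.0378 to 0.144 by PO, from -0.0772 to 0.108 by IP and from -0.116 to -0.0024 by IV, and the composition R2 from 0.0617 to 0.0900. In points, unclassified Muribaculaceae ranged from -0.635 to 0.0672, Paramuribaculum from -1.07 to 0.0135, unclassified Lachnospiraceae from -0.784 to 0.484, Alistipes_A_871400 from -0.128 to 0.187 and Dysosmobacter from -0.166 to 0.0883. The alternatives at 5000 reads, at day 0 depth and on table taxa were chosen after seeing the data. Depth limits the rare genera most: the limit of 3 reads was 0.0060% to 0.0473% in 17 metronidazole libraries and 0.210% in metronidazole IP replicate 1. It lay under the PBS mean in 17 of 18 metronidazole libraries for Borkfalkia, 15 for Ruminococcus_C_58660 and 14 for Streptococcus.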
